A study of Drosophila melanogaster with 23 samples.

Results

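The genes described here carry only a number and stood higher in undifferentiated Drosophila ovaries than in whole ovaries. Each has a FlyBase symbol made of CG and digits, the name a gene keeps until it is studied. The members were chosen by measured values in 3 libraries: a mean of at least 10 CPM (a gene's count divided by the total of its library and scaled up to a fixed total) in the 2 bam RNAi libraries, and at least 16 times the whole-ovary CPM + 0.1. Of 6001 genes with a CG number, 85 passed, and 1854 reached the level minimum. A further 136 genes with other symbols passed the same 2 thresholds. The choice used the 2 bam RNAi libraries and the whole-ovary library, so their values below are a description, and every test uses the other 20 libraries.

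In the germarium of a fly ovary, germline stem cells divide next to somatic cap and escort cells. Their daughters need Bam, the product of the gene bag of marbles, to form a cyst and enter meiosis. Ovaries that lack bam in the germline fill with undifferentiated germ cells and make no egg chambers. Besides germ cells such ovaries hold the somatic cells of the germarium and the muscle sheath. Whole adult ovaries consist mostly of growing egg chambers.

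The data were 23 poly(A)-selected RNA libraries of ovaries dissected 1 to 5 days after eclosion. The MSL3 RNAi, NC2b RNAi, Set2 RNAi and S19b RNAi groups carried the named RNAi with UAS-Dcr2 and nosGAL4, a driver active in the germline. Another group, bam RNAi; S19b mutant, carried bam RNAi under nosGAL4 with a mutation of RpS19b, and the bam RNAi group carried bam RNAi under nosGAL4 alone. The control called hsbam carried bam RNAi under nosGAL4 and the hsbam transgene, a bam copy under heat-shock control. Whole ovaries carried UAS-Dcr2 and nosGAL4 without RNAi. Each group had 2 libraries except whole ovaries, with 1. The hsbam libraries 1 and 2 served as control for MSL3 RNAi and NC2b RNAi, and hsbam 3 and 4 for Set2 RNAi. Total and polysome RNA of S19b RNAi was set against total and polysome RNA of hsbam. The MSL3, NC2b, Set2 and S19b RNAi groups carried no bam RNAi per the labels, so each comparison with hsbam also differs in the handling of bam and in UAS-Dcr2. The labels do not state whether both libraries of a group were dissected separately, and p-values measure only the spread between these libraries, which may be technical.

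Total counts ran from 2780781 in hsbam polysome 2 to 39149303 in hsbam 3. No pair of libraries of a group agreed within sampling noise. The targeted genes gave a mixed check of the labels. msl-3 was at 65.6 and 39.1 CPM in both libraries labelled MSL3 RNAi, while hsbam 1 and 2 had 32 and 38.5 CPM, which goes against that label. NC2beta was at 4.69 and 5.12 CPM in NC2b RNAi, and in hsbam 1 and 2 at 12.2 and 16 CPM. Set2 was at 62.2 and 54.3 CPM in Set2 RNAi, while hsbam 3 and 4 had 266 and 37.2 CPM, which overlap it. In hsbam 1 and 2 it was at 95.7 and 59.8 CPM. Libraries with the same driver and UAS-Dcr2 were higher, with 398 and 278 CPM in those labelled MSL3 RNAi, 278 and 263 CPM in NC2b RNAi and 240 CPM in whole ovaries. RpS19b was at 16.8 and 1.44 CPM in S19b RNAi total, against 39.4 and 227 CPM in hsbam total. Libraries without S19b RNAi were low in RpS19b too. MSL3 RNAi 1 and 2 had 1.26 and 3.09 CPM of it, and NC2b RNAi had 3.39 and 3.14 CPM. Set2 RNAi had 2.78 and 5.26 CPM, and whole ovaries had 4.9 CPM. A low level of RpS19b relative to hsbam therefore does not by itself show a knockdown. The gene bam was at 4.61, 71.9, 173 and 77 CPM in hsbam 1 to 4. In bam RNAi it was at 2.09 and 6.17 CPM, a range that holds the value of hsbam 1. Several pairs were uneven in marker genes of other tissues. A list of 16 genes of ovarian and oviduct muscle summed to 6061 and 16986 CPM in the pair labelled MSL3 RNAi 1 and 2, and to 31980, 10770, 20104 and 43271 CPM in hsbam 1 to 4. A list of 16 heat shock genes summed to 27042 and 36354 CPM in hsbam 3 and 4 and to 4267 and 5558 CPM in hsbam 1 and 2.

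All 85 members were annotated as protein coding. They lay on every large chromosome arm, with 30 on 3R, 18 on X, 16 on 3L, 12 on 2L, 8 on 2R and 1 on chromosome 4. Chromosome 3R held 35.3% of the members and 24.8% of the 1854 CG genes at the level minimum, and 2R held 9.41% and 18.4%. Their median exonic length was 1814 bases, against 1887 bases for the 1854 genes and 2683 bases for the 136 genes with other symbols. The shortest was CG43134 with 407 bases and the longest CG45263 with 13576 bases. Overlap with exons of another gene affected 14 members, 11 on the opposite strand and 3 on the same strand. The library kit keeps strand, but the strand setting of the counting was not found in the labels, so their values are uncertain. They include CG32814, which shares exons with CG11638 on the same strand, CG31125, opposite ash2, CG10063, opposite CG9953, CG14864, opposite ATPsynO, and CG6006, opposite an antisense RNA.

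A few members have an older name among their RefSeq synonyms that tells what kind of protein they encode. CG7378 is listed as MKP-like, after the MAP kinase phosphatases, which switch off MAP kinases. CG31140 is listed as DGKt, a diacylglycerol kinase name, CG43373 as dADCY5, an adenylyl cyclase name, and CG42260 as dmCNG4, a name of cyclic nucleotide-gated channels. CG7720 is listed as dSLC5A1, a name from a family of sodium-coupled transporters, and CG9737 as SP5, a serine protease name. For most members the tables used here give no role. Of the 85 members, 5 (5.88%) had a synonym from a cDNA clone series prefixed AT, namely CG10063, CG13029, CG14864, CG18131 and CG45263, against 176 of all 6001 CG genes (2.93%).

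Neighbouring members were few. With 50000 bases as the largest gap, 16 of the 85 fell into 7 groups of neighbours, and the largest groups held 3. On chromosome 3R (dm6) CG9626 (8293843 to 8300978), CG7443 (8324316 to 8325036) and CG45263 (8364328 to 8477617) lay in a row, with 12 and 10 other genes between them. On chromosome X CG18823 (990518 to 991184), CG32814 (1019795 to 1026700) and CG14629 (1051525 to 1052631) did so, with 2 and 5 other genes between them. The pair CG12782 and CG13540 on 2R was 4933 bases apart with 0 genes between. CG12268 on 3R began 10097 bases from the end of RpS19b, which also passed the thresholds, a neighbourhood noticed after the values were seen.

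In bam RNAi the members had a median of 20.4 CPM, with a range of 10.7 to 371 CPM, and in whole ovaries a median of 0.529 CPM. In the whole-ovary library 59 of 85 were under 1 CPM. Per kilobase of exon the order of levels differed from that in CPM. CG43134 came first with 632 CPM per kb, then CG32814 with 223, CG7443 with 122 and CG13540 with 112 CPM per kb, while the median member had 12.2 CPM per kb. The lowest was CG43373 with 1.57 CPM per kb. At the edge of the rule, CG3091, CG10175 and CG6753 stood just inside with ratios of 16, 16.2 and 16.6. CG9297, CG15628 and CG43078 stood just outside with 15.9, 15.7 and 15.6. By level, CG14357 and CG14196 were just inside with 10.7 and 10.8 CPM in bam RNAi, and CG5162 and CG10887 just outside with 9.91 and 9.4 CPM.

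The largest ratio of bam RNAi to whole ovaries belonged to CG43088, at 64.2 and 64.9 CPM in bam RNAi and 0.198 CPM in whole ovaries (6 counts, exact 95% Poisson interval 0.0728 to 0.432 CPM, counting error only). CG13540 followed with 60.9 and 57.7 CPM, against 0.265 CPM in whole ovaries. CG16926 rested on 1 count in whole ovaries, 0.0331 CPM with an interval of 0.000838 to 0.184 CPM.

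Against hsbam, which carries the same bam RNAi, the members fell into 3 kinds. In 34 members both bam RNAi libraries lay above all of hsbam 1 to 4, in 21 both lay below them, and in 30 the ranges overlapped. Of the 9069 genes with a mean of at least 1 CPM in the 20 other libraries, 20.5% lay above and 15.1% below, and of the 1854 CG genes at the level minimum 23.2% and 11.8%. The members were chosen for a high level in bam RNAi, so nothing is read from these counts. CG32814 was at 450 and 291 CPM in bam RNAi, against 44.8, 117, 25.2 and 21.6 CPM in hsbam 1 to 4. CG34353 was at 36.6 and 26.6 CPM in bam RNAi, against 3.43, 1.36, 2.58 and 0.696 CPM in hsbam 1 to 4. In both genes the bam RNAi libraries stood clear of the others. CG43134 had the opposite order, at 255 and 260 CPM in bam RNAi, against 2504, 2067, 1175 and 6496 CPM in hsbam 1 to 4. So did CG13067, at 11.1 and 14.8 CPM in bam RNAi, against 465, 65.4, 128 and 260 CPM in hsbam 1 to 4. The rule asks only for a level above whole ovaries, and these genes meet it.

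**Figure D1:**
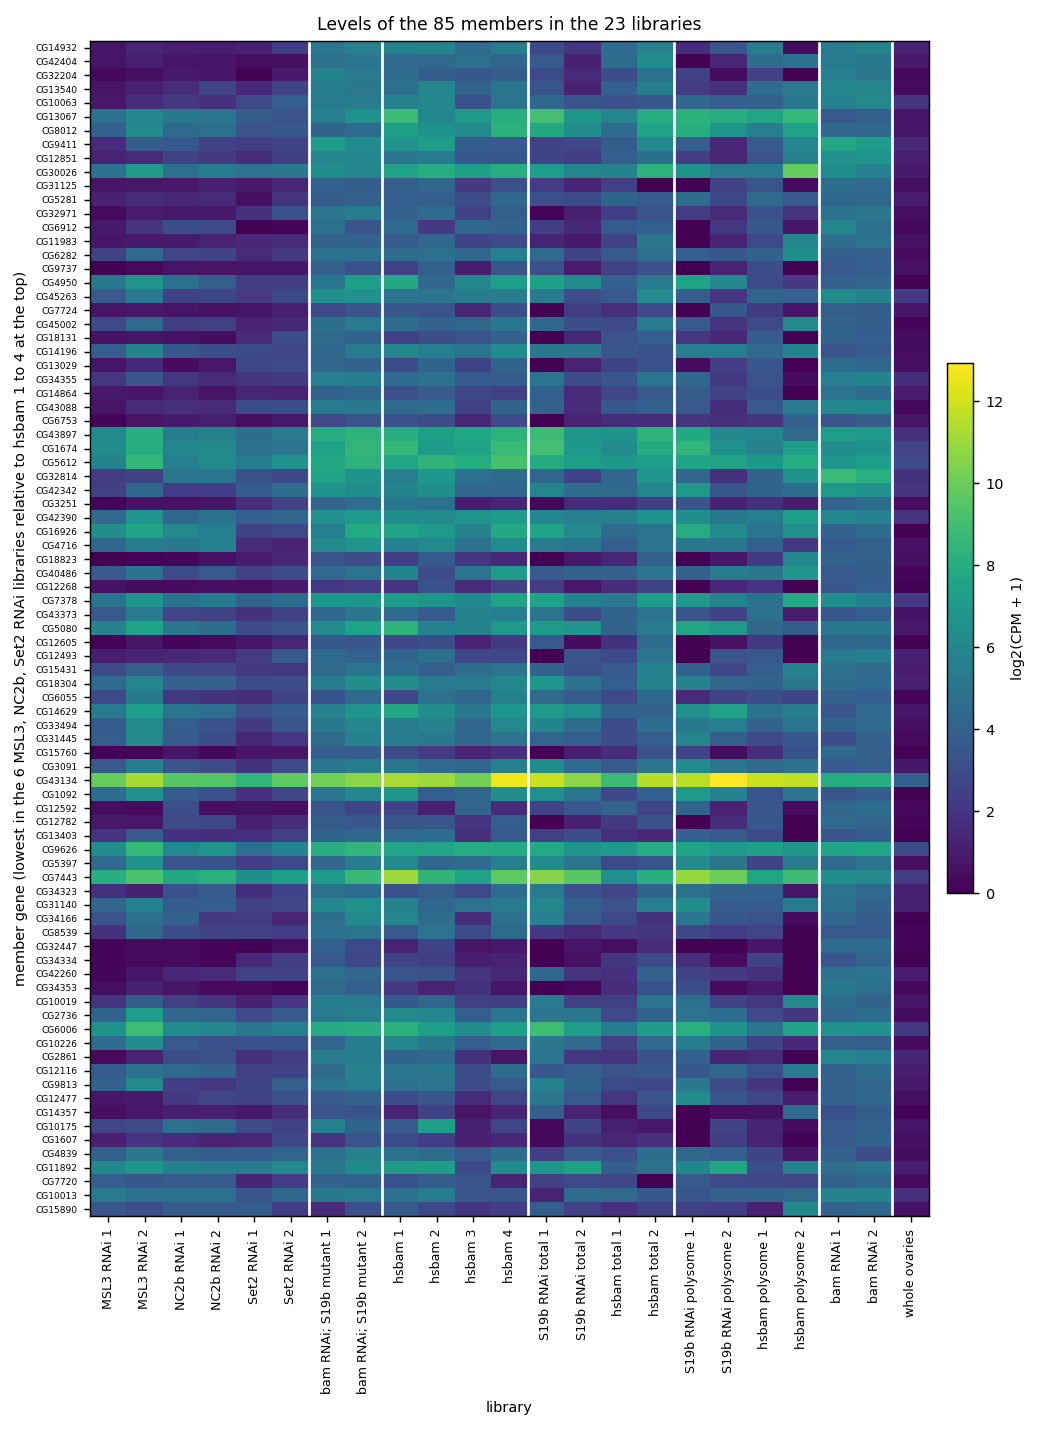
Heat map of log2(CPM + 1) for the 85 members (rows) in the 23 libraries (columns), with white lines between groups of libraries. Rows are ordered by the level in the 6 libraries labelled MSL3, NC2b and Set2 RNAi relative to hsbam 1 to 4. The lowest stand at the top and the highest at the bottom. CG43134 is the brightest row and the whole-ovary column the darkest.

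In the libraries labelled MSL3 RNAi, 32 of the 85 members fell and 0 rose relative to hsbam 1 and 2 (edgeR's quasi-likelihood test, Benjamini-Hochberg adjusted p below 0.05). Over all 10180 genes tested, 8.48% fell and 16.8% rose. The members' median log2 fold change was -1.44, that of all genes tested -0.09. All 85 passed the filter on low counts, and 71 had a fold change below 0. Among the 136 genes with other symbols that passed the same thresholds, 36 fell and 3 rose, with a median of -1.06. At an unadjusted p under 0.05 38 members were lower and 0 higher by edgeR (17.2% and 22.6% of all genes), and 0 were higher by DESeq2.

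CG14932 was at 0.689 and 1.66 CPM in both libraries labelled MSL3 RNAi, and in hsbam 1 and 2 at 55.2 and 57.7 CPM. It fell by 5.51 on the log2 scale (SE 0.49; adjusted p = 0.00978 by edgeR). CG12851 was at 1.35 and 2.04 CPM there, while hsbam 1 and 2 had 32.8 and 41.2 CPM, and fell by 4.37 (SE 0.41). Both control libraries lay more than an order of magnitude above both libraries labelled MSL3 RNAi. CG10063 was at 0.804 and 2.1 CPM, and in hsbam 1 and 2 at 50.8 and 63.2 CPM, and fell by 5.21 (SE 0.54). CG31125 was at 0.718 and 0.796 CPM, while hsbam 1 and 2 had 14.5 and 18.1 CPM, and fell by 4.35 (SE 0.45). Neither gene overlapped between the groups. CG32814, the member with the highest bam RNAi CPM, was at 3.88 and 4.65 CPM, and in hsbam 1 and 2 at 44.8 and 117 CPM, and fell by 4.16 (SE 0.49). CG9411 was at 2.07 and 12.9 CPM, against 102 and 148 CPM, and fell by 3.97 (SE 0.92; adjusted p = 0.0292). The call of CG9411 was lost without hsbam 2 (adjusted p = 0.076) and without either NC2b RNAi library (0.0572 and 0.0579). With hsbam 3 and 4 as control 0% of all genes tested passed by edgeR, and so 0 of these 6 genes. Their fold changes were then -4.84 for CG14932, -2.73 for CG12851, -3.88 for CG10063, -2.97 for CG31125, -2.54 for CG32814 and -0.78 for CG9411, which overlapped hsbam 3 and 4 at 12.8 and 11.4 CPM.

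Of the 53 members that did not pass, several of the most abundant had unlike levels in the pair labelled MSL3 RNAi. CG5612 was at 55.1 and 381 CPM in the pair labelled MSL3 RNAi 1 and 2, while hsbam 1 and 2 had 202 and 337 CPM. CG9626 was at 86.9 and 386 CPM, and in hsbam 1 and 2 at 197 and 193 CPM. CG6006 was at 98.5 and 487 CPM, while hsbam 1 and 2 had 317 and 160 CPM. In all 3 the first library was below both controls and the second above both. CG43134 was at 959 and 2434 CPM, against 2504 and 2067 CPM, and CG7443 at 285 and 584 CPM, and in hsbam 1 and 2 at 2103 and 353 CPM.

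This unevenness ran through the members. The library labelled MSL3 RNAi 2 exceeded MSL3 RNAi 1 in 77 of the 85, with a median log2 ratio of 1.11 (CPM + 0.5), against -0.11 over 9069 genes with a mean of at least 1 CPM. The muscle list had a median ratio of 1.66 between the same 2 libraries, with all 16 genes higher in MSL3 RNAi 2. For a list of 17 fat body and hemocyte genes it was 1.79, with 15 higher. For 16 escort, cap and terminal filament genes it was 1.25, with 14 higher. For 13 neuron and glia genes it was 1.78, with 12 higher. For 15 germline genes, listed as undifferentiated germline, it was -0.58, with 0 higher. None of the 16 muscle genes was at 0 in any of the 20 libraries. Mhc, the muscle myosin heavy chain, was at 1014 and 2698 CPM in the pair labelled MSL3 RNAi 1 and 2, while hsbam 1 and 2 had 5130 and 1372 CPM. In a bulk sample fewer cells of a type and less RNA per cell cannot be told apart. The part of muscle, fat body and the other listed cell types in these levels was not tested.

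Without the library labelled MSL3 RNAi 2, 48 members fell (background 9.66%), of which 30 were among the 32. Without MSL3 RNAi 1, 23 fell (background 1.9%), of which 22 were among the 32, and 2 rose, CG2736 and CG9813. Marker lists of ovarian cells differed in direction. Of 16 escort, cap and terminal filament genes, 4 (25%) fell and 0 rose in the libraries labelled MSL3 RNAi, and 5 (31.2%) fell and 0 rose in NC2b RNAi. Of all genes tested 8.48% and 4.53% fell. The 16 escort, cap and terminal filament genes summed to 488 and 1412 CPM in both libraries labelled MSL3 RNAi and 699 and 663 CPM in NC2b RNAi, while they reached 1830 and 2011 CPM in hsbam 1 and 2. The escort cell gene Wnt4 was at 2.64 and 9.23 CPM in both libraries labelled MSL3 RNAi, while hsbam 1 and 2 had 39.2 and 48.4 CPM. Of 21 follicle cell and eggshell genes, 8 rose and 0 fell in the libraries labelled MSL3 RNAi, and 9 rose and 0 fell in NC2b RNAi. Of 15 germline genes, listed as undifferentiated germline, 7 rose and 2 fell in the libraries labelled MSL3 RNAi (median 0.76). In NC2b RNAi 7 rose and 1 fell (median 0.71). The list does not mark undifferentiated cells alone, as it summed to 3615 CPM in whole ovaries and to 2358 and 2898 CPM in hsbam 1 and 2. Its gene bgcn, at 1.98 CPM in whole ovaries, was at 111 and 87.5 CPM in hsbam 1 and 2. MSL3 RNAi 1 and 2 had 9.39 and 8.91 CPM of bgcn, and NC2b RNAi had 2.83 and 2.67 CPM. Of 11 genes of the synaptonemal complex and meiotic cohesion, 5 fell in MSL3 RNAi, 4 fell in NC2b RNAi and 0 rose. None of these lists contains a member, and the part of these cells in the members' levels was not tested.

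**Figure D2:**
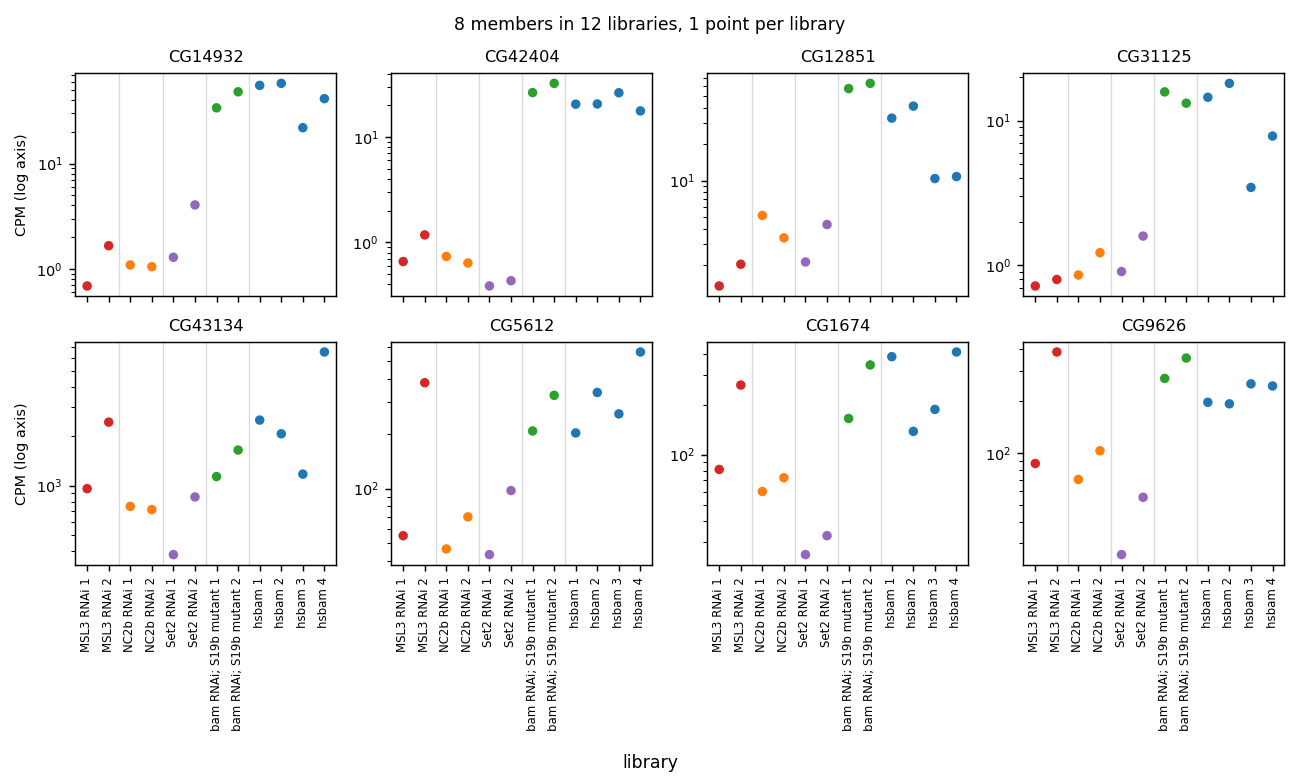
CPM on a log axis (a separate axis for each gene) of 8 members in 12 libraries, 1 point per library, coloured by group, with the libraries labelled MSL3, NC2b and Set2 RNAi and the mutant left of hsbam 1 to 4. CG14932, CG42404, CG12851 and CG31125 lie lower in all 6 of these RNAi libraries than in hsbam 1 to 4, on axes that differ between genes; CG5612, CG1674 and CG9626 stand high in MSL3 RNAi 2 and low in MSL3 RNAi 1, and CG43134 runs from 1175 to 6496 CPM in hsbam 1 to 4.

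In NC2b RNAi 31 of the 85 members fell and 0 rose relative to the same controls, hsbam 1 and 2, which this comparison shares with the previous one. Over all genes tested 4.53% fell and 14.1% rose. The median of the members was -2.21, that of all genes -0.09, and 82 members had a fold change below 0. At an unadjusted p under 0.05, 57 members were lower and 0 higher by edgeR (17.1% and 22.3% of all genes), and 0 were higher by DESeq2. Of the 136 genes with other symbols, 49 fell and 2 rose, with a median of -2.16.

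CG14932 was at 1.09 and 1.05 CPM in NC2b RNAi, and in hsbam 1 and 2 at 55.2 and 57.7 CPM, and fell by 5.62 (SE 0.50; adjusted p = 0.0166 by edgeR). CG42404 was at 0.737 and 0.64 CPM, while hsbam 1 and 2 had 20.5 and 20.6 CPM, and fell by 4.79 (SE 0.48). CG3251 was at 0.56 and 0.698 CPM, and in hsbam 1 and 2 at 30.2 and 24.9 CPM, and fell by 5.36 (SE 0.65). The libraries of each group stood close together in these genes. CG31125 was at 0.855 and 1.22 CPM in NC2b RNAi, against 14.5 and 18.1 CPM, and fell by 3.88 (SE 0.45). CG12851 fell by 3.01 (SE 0.38) to 5.16 and 3.37 CPM. CG42342 was at 3.72 and 4.13 CPM, while hsbam 1 and 2 had 55 and 85.9 CPM, and fell by 4.06 (SE 0.75; adjusted p = 0.0229). In the libraries labelled MSL3 RNAi it was at 4.51 and 19.9 CPM, with a fold change of -2.44 (SE 0.69; adjusted p = 0.0501). There it passed by DESeq2 (adjusted p = 0.000828), by limma-voom (0.0218), with either other scaling, with no filter, with the replicate block (0.0346) and without either library labelled MSL3 RNAi. It did not pass without hsbam 1 or 2 or either NC2b RNAi library, and with hsbam 3 and 4 as control its fold change there was -0.69. With hsbam 3 and 4 as control the fold changes in NC2b RNAi were -4.92 for CG14932, -5.03 for CG42404, -2.48 for CG31125, -1.36 for CG12851 and -2.28 for CG42342. That of CG3251 was -1.04 (adjusted p = 0.481), with 0.971 and 1.56 CPM in hsbam 3 and 4.

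CG32814 had a higher CPM here. It was at 31.3 and 31.9 CPM in NC2b RNAi, with a fold change of -1.25 (SE 0.44; adjusted p = 0.0938, with 0.0301 by DESeq2 and 0.0205 without hsbam 1), while both libraries labelled MSL3 RNAi were under 5 CPM. The difference between them was not tested. Against hsbam 3 and 4, at 25.2 and 21.6 CPM, its fold change in NC2b RNAi was 0.39. Muscle genes summed to 5339 and 6337 CPM in NC2b RNAi, and 0 of the 16 passed by edgeR, with a median of -1.89 and 9 lower at an unadjusted p under 0.05. DESeq2 called 10 of them lower.

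The NC2b RNAi count depended on which library was left out. Without NC2b RNAi 1 or NC2b RNAi 2, 0 members passed, with 35 and 33 lower at an unadjusted p under 0.05 (5.28% and 4.59% of all genes), and 0% of all genes passed in either fit. The members' medians were then -2.30 and -2.12. Without hsbam 1, 24 members fell (background 2.1%), and without hsbam 2, 11 (background 0.676%). Without MSL3 RNAi 2 and without MSL3 RNAi 1, which share the estimate of spread, 55 and 57 fell (background 10.3% in each). By DESeq2 60 members fell (background 14.8%). With hsbam 3 and 4 in place of hsbam 1 and 2, 0% of 10094 genes tested passed by edgeR in NC2b RNAi and in the libraries labelled MSL3 RNAi. So 0 members passed, with 48 and 37 at an unadjusted p under 0.05 (20.5% and 20.8% of all genes).

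**Figure D3:**
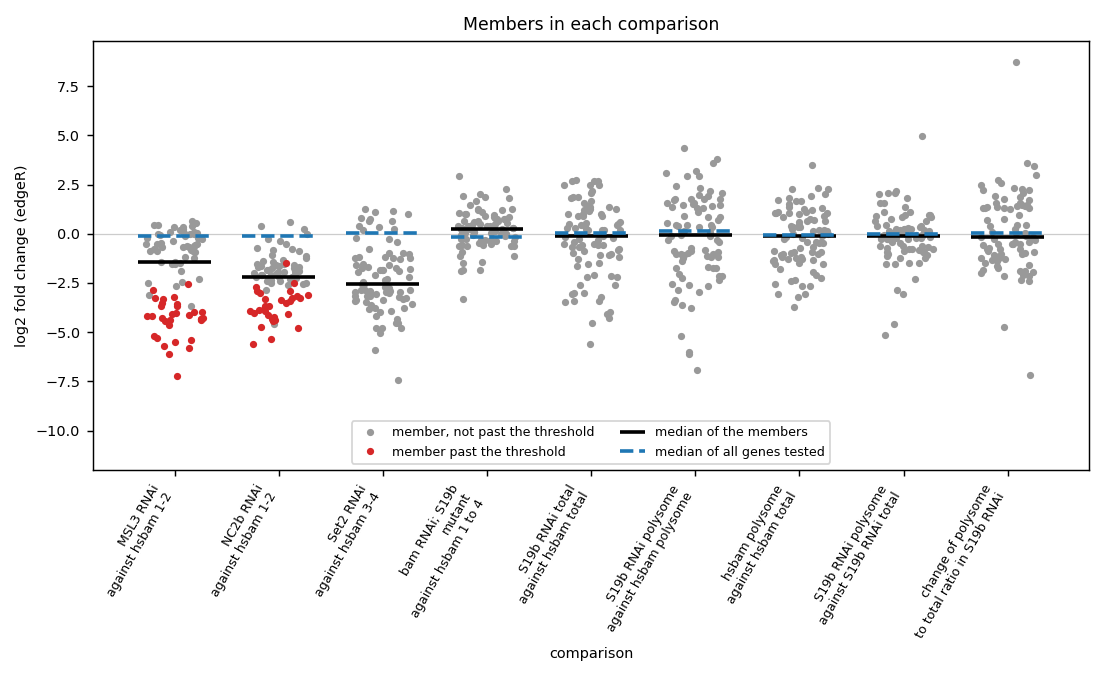
Log2 fold changes of the members in 9 comparisons (1 point per member), with members past the threshold in red, the members' median as a black line and the median of all genes tested as a dashed blue line. The black line is at -1.44 for the libraries labelled MSL3 RNAi, -2.21 for NC2b RNAi and -2.53 for Set2 RNAi, and between -0.19 and 0.23 elsewhere.

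In Set2 RNAi the members' median fold change relative to hsbam 3 and 4 was -2.53, against 0.04 for all genes tested, and 73 of 85 were below 0. No member passed the threshold by edgeR, where 0% of 9313 genes tested passed, and 55 members were at an unadjusted p under 0.05, all of them lower in Set2 RNAi (16.5% of all genes). By DESeq2 50 members fell and 0 rose (background 12.6%), and by limma-voom 0 passed, with 45 lower at an unadjusted p under 0.05 (14.9% of all genes). The count was 61 falls without hsbam 3 (background 26.7%) and 43 falls with 1 rise, that of CG11892, without hsbam 4 (background 14.1%). Against hsbam 1 and 2 it was 68 (background 18%).

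CG42404 was at 0.387 and 0.434 CPM in Set2 RNAi, and in hsbam 3 and 4 at 26.3 and 17.7 CPM. CG32204 was at 0.0645 and 0.869 CPM, while hsbam 3 and 4 had 10.9 and 12.9 CPM. CG6912, which shares exons with an antisense RNA on the same strand, was at 0.0645 and 0.145 CPM, against 19.2 and 15.7 CPM. For CG32204 and CG6912 the value in Set2 RNAi 1 is that of 1 count, and the 2 groups stood far apart in all 3 genes. CG13540 was at 1.74 and 5.31 CPM, and in hsbam 3 and 4 at 16.7 and 32.1 CPM. CG10013 and CG11892 met or overlapped between the groups, CG10013 with 9.62 and 19.1 CPM in Set2 RNAi, against 9.58 and 9.62 CPM, and CG11892 with 42.5 and 72 CPM, while hsbam 3 and 4 had 6.36 and 73 CPM.

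Marker sums of other tissues were also lower in Set2 RNAi. The muscle list summed to 2594 and 2522 CPM in Set2 RNAi and to 20104 and 43271 CPM in hsbam 3 and 4, with a median fold change of -4.03. The fat body and hemocyte list summed to 993 and 955 CPM, against 3403 and 4339 CPM. The heat shock list summed to 7112 and 7373 CPM in Set2 RNAi, while hsbam 3 and 4 had 27042 and 36354 CPM. By edgeR 0 genes of these lists passed, with 16 of 16 muscle, 10 of 16 fat body and hemocyte and 12 of 14 heat shock genes lower at an unadjusted p under 0.05. DESeq2 called 16, 9 and 11 of them lower. Lists of ovarian cells differed in direction. The escort, cap and terminal filament list summed to 570 and 575 CPM in Set2 RNAi, against 823 and 856 CPM in hsbam 3 and 4. Its median was -1.75, and DESeq2 called 9 of its 15 tested genes lower and 0 higher. The follicle cell and eggshell list summed to 24904 and 16904 CPM, against 7976 and 5267 CPM. Its median was 2.23, and DESeq2 called 8 of 21 genes higher and 0 lower. By edgeR 0 genes of either passed. The part of each list in the members' levels was not tested.

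Across these comparisons, 20 members (23.5%) were lower in all 6 libraries labelled MSL3 RNAi, NC2b RNAi and Set2 RNAi, below called the 6 RNAi libraries, than in every one of hsbam 1 to 4. Of 9069 genes with a mean of at least 1 CPM, 6.25% were. No member was higher in all 6, against 13.2% of those genes. The 20 include CG14932, at 0.689 to 4.05 CPM in the 6 RNAi libraries and 21.9 to 57.7 CPM in hsbam 1 to 4. CG42404, another, was at 0.387 to 1.18 CPM in the 6 and 17.7 to 26.3 CPM in hsbam 1 to 4. The others are CG12851, CG30026, CG13540, CG34355, CG32204, CG14864, CG11983, CG31125, CG32447, CG8012, CG5281, CG15760, CG18823, CG7724, CG13067, CG9737, CG12268 and CG6753. Of these, CG30026, CG8012 and CG13067 stayed at 8.73 CPM or more in all 6 RNAi libraries. CG30026 was at 26 to 127 CPM there, against 162 to 268 CPM in hsbam 1 to 4. CG12268, the neighbour of RpS19b, was at 0.35 to 0.869 CPM in the 6, against 1.99 to 8.42 CPM.

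By level, 3 members led the 6 RNAi libraries. CG43134 was at 381 to 2434 CPM, CG7443 at 83.6 to 584 CPM and CG6006 at 32.7 to 487 CPM. In hsbam 1 to 4 the highest were CG43134, CG7443 with 2103, 353, 181 and 832 CPM, and CG5612 with 202, 337, 257 and 562 CPM. CG43134 by itself made up 381 of the 992 CPM that the 85 members summed to in Set2 RNAi 1, and 6496 of 12403 CPM in hsbam 4.

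The bam RNAi; S19b mutant libraries share the bam RNAi of the libraries that chose the members but were not used in the choice. All 85 members were at 1 CPM or more in both, with medians of 27.4 and 39.1 CPM. Set against hsbam 1 to 4, a comparison that differs in experiment, in the hsbam transgene and in RpS19b at once, the members' median fold change was 0.23, against -0.14 for all genes tested. No member passed by edgeR, 14 were at an unadjusted p under 0.05 (7.49% of all genes), and 0% of 10191 genes passed. DESeq2 called 4 members (background 0.756%). CG34353 and CG32204 were higher (log2 fold changes of 2.99, SE 0.67, and 1.53, SE 0.43), and CG8012 and CG30026 lower (-3.22, SE 0.62, and -1.77, SE 0.40). The heat shock list had a median of -3.68 and the muscle list of -1.29 in this comparison.

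Both mutant libraries were above all of hsbam 1 to 4 in 22 members (25.9%), against 13.7% of the 9069 genes, and below all of them in 2 (2.35%), against 7.09%. CG12851 was at 57.5 and 63.5 CPM in the mutant, against 32.8, 41.2, 10.4 and 10.8 CPM in hsbam 1 to 4. CG43088 was at 37.4 and 34.8 CPM, against 20.9, 23.4, 4.7 and 16.8 CPM. CG34353 was at 21.3 and 13.5 CPM, against 3.43 CPM or less in each of hsbam 1 to 4. Set against the 6 RNAi libraries, both mutant libraries were higher than all in 48 members (56.5%), against 19.9% of those genes. CG32204, for example, was at 54 and 39.4 CPM in the mutant and at 0.885 CPM or less in each of the 6 RNAi libraries. The members were chosen for a high level under the same bam RNAi, so these shares are a description only.

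The highest levels in the mutant were those of CG43134 with 1135 and 1646 CPM, CG9626 with 271 and 356 CPM and CG43897 with 259 and 331 CPM. The lowest were CG12268 with 3.27 and 3.92 CPM, CG15890 with 2.09 and 7.51 CPM and CG1607 with 2.93 and 9.16 CPM. All 3 had been at 10.5 CPM or more in both bam RNAi libraries. The pair was uneven too: CG4950 was at 31.3 and 155 CPM and CG16926 at 46 and 239 CPM, with muscle sums of 9906 and 16408 CPM in mutant libraries 1 and 2.

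In S19b RNAi the members' medians lay close to those of all genes. In total RNA the median fold change of the 84 members that passed the filter was -0.12 relative to hsbam total, against 0.04 for all 9688 genes tested. No member and 0% of genes passed by edgeR, and 7 members were at an unadjusted p under 0.05 (1.75% of all genes). DESeq2 called 1 member, CG14629, higher in S19b RNAi (2.69, SE 0.73; background 0.475%). CG14629 was at 122 and 88.7 CPM in S19b RNAi total, against 15 and 15.6 CPM in hsbam total. In polysome RNA the median was -0.07, against 0.12 for all genes. Again 0 members and 0% of genes passed, with 10 members at an unadjusted p under 0.05 (3.3% of all genes). DESeq2 called 5 members (background 1.16%): CG4950 (4.37, SE 0.92) and CG5080 (3.17, SE 0.73) were higher, and CG11983 (-6.23, SE 1.72), CG42404 (-5.28, SE 1.54) and CG18823 (-7.09, SE 2.08) lower in S19b RNAi. The 3 lower genes were at 0 in S19b RNAi polysome 1.

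The 2 libraries of a group lay further apart here than the groups did. The members' median level was 17.7 and 7.51 CPM in S19b RNAi total, against 8.6 and 18.7 CPM in hsbam total. Muscle genes summed to 30418 and 10045 CPM in S19b RNAi total, against 6888 and 26700 CPM in hsbam total. S19b RNAi total 1 and hsbam total 2 were the high libraries in both measures. Without S19b RNAi total 1 the members' median fold change was -0.87, and without hsbam total 2 it was 0.83. CG1674 was at 536 and 119 CPM in S19b RNAi total, against 74.2 and 250 CPM in hsbam total. CG43897 was at 467 and 114 CPM, against 95.1 and 341 CPM. For CG14932 the groups did not overlap, with 6.49 and 3.1 CPM in S19b RNAi total, against 21.5 and 51.3 CPM in hsbam total. CG13540 was at 9.13 and 1.44 CPM, against 14.6 and 45.6 CPM. A list of 16 gut, Malpighian tubule and trachea genes had a median fold change of 6.76 in total RNA, but its libraries differed within the group. It summed to 220 and 674 CPM in S19b RNAi total, against 80.5 and 189 CPM in hsbam total. Its median log2 ratio of S19b RNAi total 1 over 2 was -4.89, and 11 of its genes were at 0 in hsbam total 2. The heat shock list had a median fold change of -2.88 in total and -2.99 in polysome RNA. The part of both lists in the members' levels was not tested.

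**Figure D4:**
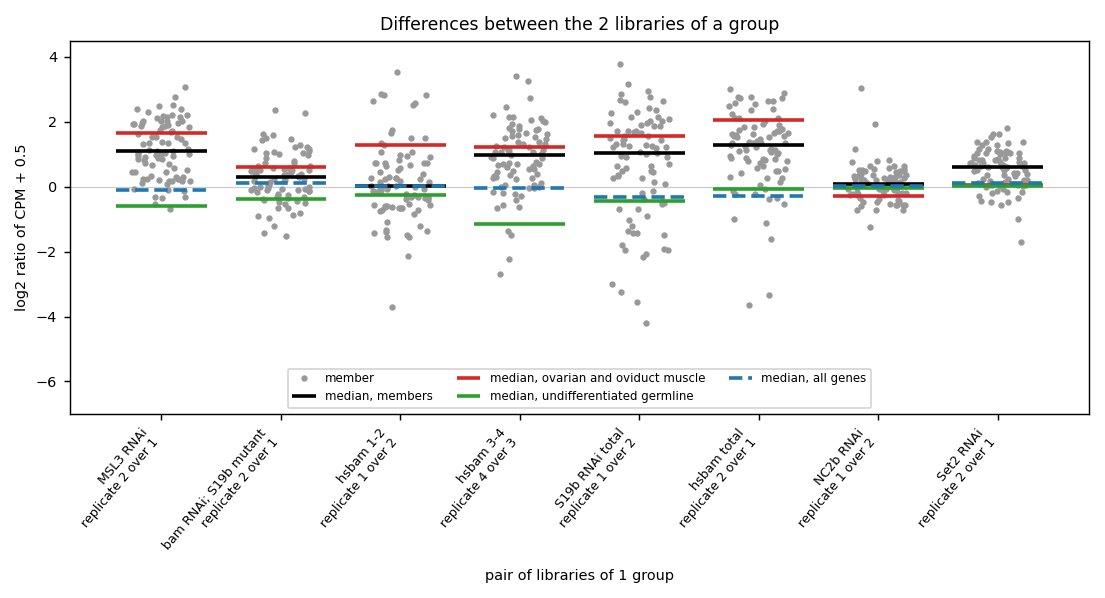
Log2 ratio of CPM + 0.5 between the 2 libraries of a group for each member (grey points). Lines are medians of the members (black), of 16 muscle genes (red), of 15 germline genes listed as undifferentiated germline (green) and of 9069 genes (dashed blue). The members' median is 1.11 for MSL3 RNAi 2 over 1, 1.30 for hsbam total 2 over 1 and 1.03 for S19b RNAi total 1 over 2, on the same side of 0 as the muscle median in those pairs, and 0.01 for hsbam 1 over 2, where the muscle median is 1.28.

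Polysome RNA carries transcripts bound by several ribosomes, and its ratio to total RNA is a measure of translation. The members' median fold change of polysome over total RNA was -0.12 in hsbam and -0.09 in S19b RNAi, against -0.07 and 0.00 for all genes tested. No member passed in either, nor for the change of the ratio in S19b RNAi, where their median was -0.19, against 0.06 for all genes. In each of these 3 tests 0% of genes passed by edgeR, with 3, 0 and 0 members at an unadjusted p under 0.05 (0.434%, 0.0516% and 0.0516% of all genes). DESeq2 called 0 members in each, with 5, 4 and 4 at an unadjusted p under 0.05 (2.56%, 0.557% and 0.578% of all genes). With the replicate number as a block, 1 member passed for hsbam (background 0.0826%). CG43897 was at 60.4 and 20.9 CPM in hsbam polysome, against 95.1 and 341 CPM in hsbam total, and fell by 2.27 (SE 0.51; adjusted p = 0.0385 by edgeR). Depth limits this comparison: 1 count was worth 0.36 CPM in hsbam polysome 2, where 18 members were at 0, which allows up to 1.08 CPM each. At the other end, CG43134 was at 3042 and 7748 CPM in S19b RNAi polysome, against 3691 and 1609 CPM in S19b RNAi total. In hsbam it was at 3878 and 3297 CPM in polysome RNA, against 441 and 2918 CPM in total RNA.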

How the data were processed

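Poly(A)-selected RNA of 23 ovary libraries was counted per gene. The authors deposited raw read counts. The submitters' processing notes list HISAT2 2.1.0, featureCounts 1.6.0.4, edgeR 3.16.5 and the build dm6, with no roles. Neither strand setting nor annotation version is given in the sources used here. A set of 8 small tables of 2 rows was not used. Of 17023 gene IDs, 16647 had a symbol. Places come from the Ensembl annotation of BDGP6, synonyms from RefSeq, which had an entry for all 85 members.

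Tests used the quasi-likelihood F test of edgeR 4.0.16 (R 4.3.3) on TMM-scaled counts, after filterByExpr with a minimum count of 10 and a minimum total of 15. The adjustment was Benjamini-Hochberg's across the whole table, with a threshold of 0.05. Log2 fold changes come from the fit, and SE is the fold change over the root of F. MSL3 RNAi, NC2b RNAi and hsbam 1 and 2 shared 1 fit, and the total and polysome libraries another. CPM use library totals.

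The members and marker lists were chosen with earlier results of these data known. Named were the 12 members highest in bam RNAi, up to 4 members with the smallest p per comparison and direction, the 3 on each side of the ratio limit, the 3 highest and lowest in the mutant, the 3 highest in hsbam 1 to 4 and in the MSL3, NC2b and Set2 RNAi libraries, and the largest groups of neighbours. Similar proteins and product classes, also in that rule, were not analysed here. Other members were named after their values were seen. Alternatives were DESeq2 1.42.0, limma-voom (limma 3.58.1), other scalings, no filter, leaving out each library, a replicate block and other hsbam controls. Same-numbered total and polysome libraries deviated together over 7303 genes (correlations of 0.387 in hsbam and 0.367 in S19b RNAi), so a replicate block was also fitted there and its call is given. The labels do not say that such libraries share an extract. Figures were drawn with matplotlib 3.10.9.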

Additional observations from a re-analysis of the deposited data

How the results depend on the processing

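The falls of members kept their direction under most settings but not their number. With hsbam 3 and 4 as control for MSL3 RNAi and NC2b RNAi, 0% of all genes passed by edgeR. In the libraries labelled MSL3 RNAi the 32 calls became 3 with all 4 hsbam libraries as control (CG42404, CG32204 and CG14932; 0.122% of all genes fell) and 0 with hsbam 3 and 4 as control, with 37 at an unadjusted p under 0.05, and ran from 25 to 48 when 1 library was left out. In NC2b RNAi the 31 calls became 60 by DESeq2, 2 with all 4 hsbam libraries (CG42404 and CG14932; 0.0188%) and 0 with hsbam 3 and 4, with 48 at an unadjusted p under 0.05, and ran from 0 to 57 with 1 library left out. In Set2 RNAi the 0 calls became 38 falls with no filter on low counts (5.92% of all genes), 50 by DESeq2, 31 with all 4 hsbam libraries (5.49%) and 68 with hsbam 1 and 2, and ran from 1 to 61. Without Set2 RNAi 2 the 1 call was CG6912, and without Set2 RNAi 1 there were 4 (CG6912, CG42404, CG4716 and CG45002). For bam RNAi; S19b mutant DESeq2 gave 4 calls, and leaving out a library 0. For S19b RNAi in total RNA DESeq2 gave 1 call. In polysome RNA no filter gave 3 calls (CG30026, CG4950 and CG5080; 0.505% of all genes) and DESeq2 5, and the counts ran from 0 to 2 with 1 library left out. The 2 were CG30026 and CG12851, without hsbam polysome 1. For hsbam polysome over total they ran from 0 to 1 (CG14196). Where a group is left with 1 library, that library is assumed to vary like the others. The cause was not tested.

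Outside the total and polysome pairs, same-numbered libraries share only a number: their deviations correlated at -0.14 and 0.198 between the MSL3 or NC2b RNAi libraries and hsbam 1 and 2, and at -0.459 and -0.304 between S19b RNAi and hsbam. With a replicate block 33 members fell in MSL3 RNAi (5.11% of all genes), 25 in NC2b RNAi (1.95%) and 1, CG43897, in hsbam polysome over total (0.0826%). In the other total and polysome comparisons 0 members passed, with 0.224% of all genes in S19b RNAi total. Pairing crossed numbers, added after the data were seen, gave 30 falls in MSL3 RNAi (6.88% of all genes) and 30 in NC2b RNAi (3.46%). In S19b RNAi total it gave 12 calls, 9 rises (1.17%) and 3 falls (0.987%), and in S19b RNAi polysome 1 rise (0.338%). Library size alone moved the median of all genes by over 0.1 in some comparisons, for Set2 RNAi from 0.04 to 0.21, where the members' median was -2.36. For 7 genes in MSL3 RNAi and 7 in NC2b RNAi, 210 values were computed: 162 stayed on their side of the threshold, 37 lost and 10 gained the call. Of the 37, 19 lay within 0.5 of the reported log2 fold change, and the other 18 all came with other hsbam controls. 1 value reversed, CG32814 in NC2b RNAi at 0.39 with hsbam 3 and 4 as control. Members under a few CPM, and all values of hsbam polysome 2, rest on few counts.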
